A study of Mus musculus with 6 samples.

Results

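Th1 and Th2 polarization in the absence of Ezh2 was examined by setting 1 array of Ezh2 knockout (Ezh2 KO) Th1 cells against 1 array of Ezh2 KO Th2 cells, chosen by their titles, which are 2 of the 6 arrays of the series. The other 4 arrays held Ezh2 KO unpolarized cells and wild type unpolarized, Th1 and Th2 cells, again 1 array each. All cells were naive CD4 T cells (CD44 low, CD62L high) from the spleen of C57BL/6 mice, labelled wild type or Ezh2 KO. They were activated for 2 days on a coat of antibody to the beta chain of the T cell receptor (10 µg/ml) with antibody to CD28 (1 µg/ml) and IL-2 (15 ng/ml), then kept for 3 days off these antibodies, 5 days in all. The Th1 wells received IL-12 (1 ng/ml) and an antibody that blocks IL-4. The Th2 wells received IL-4 (10 ng/ml) and an antibody that blocks interferon gamma, and the unpolarized wells received both blocking antibodies. Age, the number of animals behind an array, and the Cre line and exons behind the deletion are not given in the sources used here.

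Helper T cells take on effector programmes under the cytokines they meet. IL-12 acts through STAT4 and the transcription factor T-bet (gene Tbx21) toward Th1 cells, which make interferon gamma, and IL-4 acts through STAT6 and GATA3 toward Th2 cells, which make IL-4, IL-5 and IL-13. Ezh2 is the enzyme of Polycomb repressive complex 2 and methylates lysine 27 of histone H3 at silent genes, and lineage genes of the opposite helper fate are among the genes known to carry this mark in T cells.

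The values are scanner intensities on a linear scale, brought by the authors to a common trimmed mean of 500.003 on every array, with array medians from 61.3 to 69.1. Of 18193 genes with a probe set of their own, 11585 reached the median of all values (64.14) on at least 1 array and were compared. A difference below is log2 of Th1 minus log2 of Th2, so a positive value is higher in Th1, and values under a floor of 11.3 were raised to it. Within the pair no replicate exists, so these differences carry no error and no test, and 2-fold marks size alone. Of the 9 measured CD4 T cell markers, 7 read 500 or more on the brighter array of the pair. The summed level of the 9 was 71490 in Ezh2 KO Th1 and 80930 in Ezh2 KO Th2 cells. Ezh2 itself read 4876 in Ezh2 KO Th1 and 4946 in Ezh2 KO Th2 cells, beside 6552 and 7677 in the wild type cells. This probe set cannot check the genotype labels, because the deleted exons are not given and the position of the probes in the transcript was not examined.

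Among bright genes, the Ezh2 KO pair differed mostly by genes higher in Th2 cells. Taking the genes whose brighter array of the pair read 500 or more, a limit chosen after the data were seen, 60 of 6379 (0.941%) were at least 2-fold higher in Th2 and 8 (0.125%) at least 2-fold higher in Th1. At 4-fold the counts were 10 and 0. A gene could meet the limit through 1 array alone, whichever was the brighter. The 10 genes at 4-fold were the cytokine genes Il5, Il10, Il13 and Il24 with Cyp11a1, Cpa3, Penk, Il1r2, Ccr1 and Epas1. Of these, Epas1 alone read over 500 on both arrays (858 in Ezh2 KO Th1). The others met the limit through the Ezh2 KO Th2 array only. The Th1 side held Tox, Upp1, Tnf, Elovl7, Zcchc2, Klf3, Nsg2 and Dennd4a, of which Tox was the widest at 2.87-fold. In the wild type pair, the same brightness limit gave 25 of 6420 genes (0.389%) higher in Th2 and 51 (0.794%) higher in Th1, so Th1-high genes were 67.1% of the 2-fold genes in wild type and 11.8% in the Ezh2 KO.

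**Figure D1:**
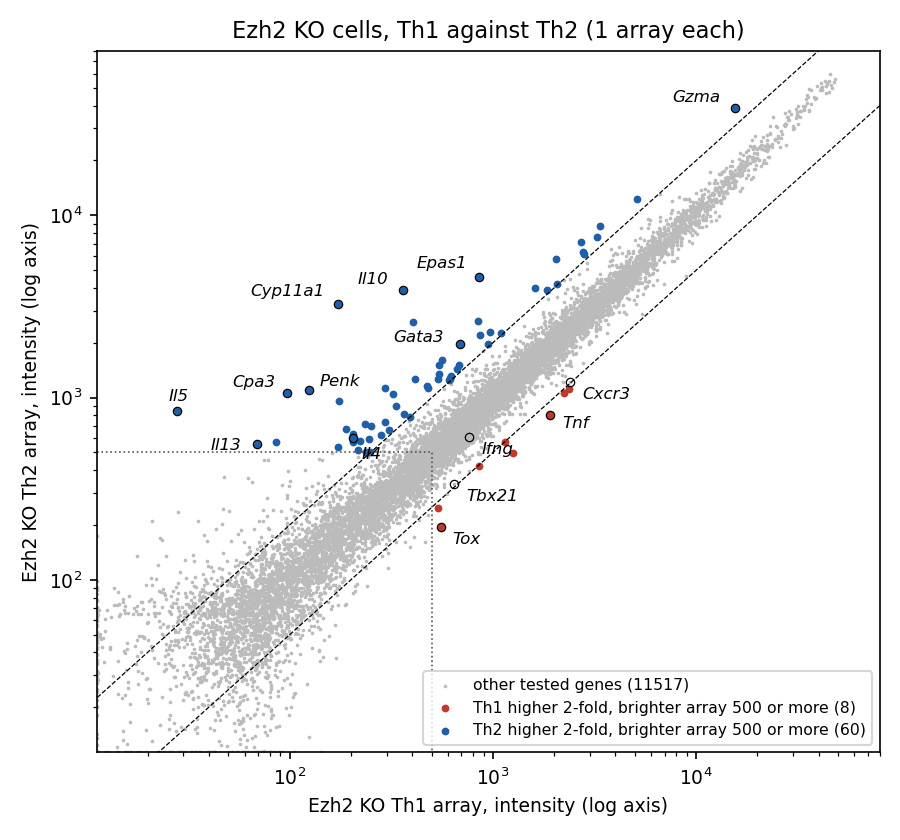
Intensity of the 11585 compared genes on the Ezh2 KO Th1 array (horizontal, log axis) and the Ezh2 KO Th2 array (vertical, log axis), 1 point per gene; dashed lines mark 2-fold and dotted lines intensity 500. The 60 bright genes higher in Th2 (blue) reach farther from the diagonal than the 8 higher in Th1 (red), while Ifng, Tbx21 and Cxcr3 (open circles) lie inside the 2-fold lines.

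Over all 11585 compared genes, dim ones included, 314 (2.71%) were at least 2-fold higher in Th1 and 394 (3.4%) at least 2-fold higher in Th2, and the median difference was -0.0027. These counts came largely from dim genes. Where both Ezh2 KO arrays read under 64.14, 25.3% of 767 genes were 2-fold apart, with an SD of the differences across genes of 0.91. From 64.14 to 200 the share was 15.8%, from 200 to 500 it was 3.37%, and at 5000 or more it was 0.792% with an SD of 0.23. Below 64.14 the counts were 110 genes higher in Th1 and 84 in Th2, and from 200 to 500 the counts were 17 and 52. Gene names are therefore given below with the readings of both arrays.

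**Figure D2:**
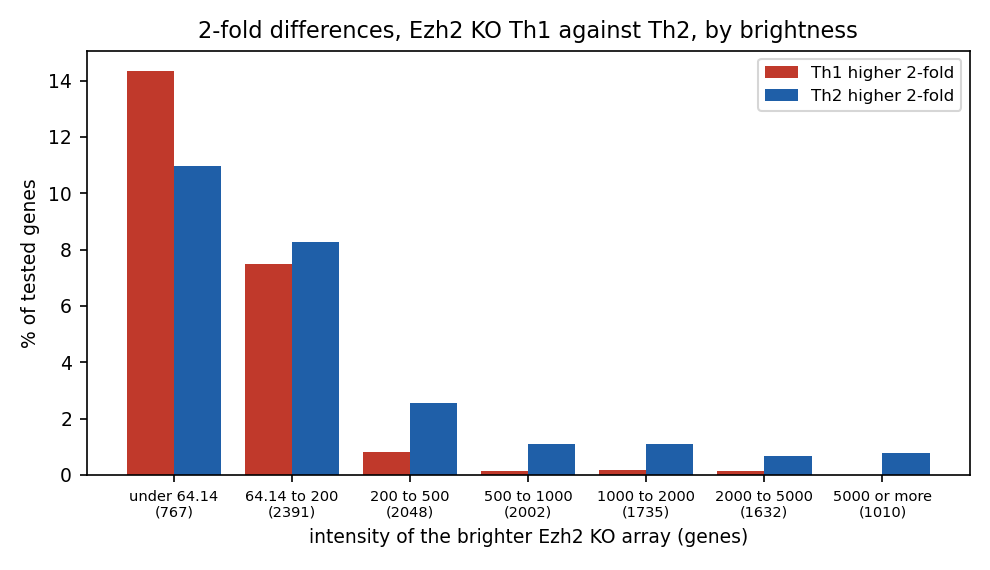
Share of compared genes (vertical, %) that were at least 2-fold higher in Ezh2 KO Th1 (red) or Ezh2 KO Th2 cells (blue), by the intensity of the brighter of the 2 arrays (horizontal, number of genes in brackets). The share is highest in the dimmest bins, and from 200 upward the Th2 bar is the taller one in every bin.

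Th2 cytokine genes made the widest gap of the pair. Of 13 listed genes, 7 passed the filter on low values. Il5 and Il6 passed it through the Ezh2 KO Th2 array only, so they had to differ, and they carry no weight in a count. Of the other 5, Il4, Il13, Il10 and Il24 were at least 2-fold higher in Ezh2 KO Th2 cells and Csf2 was not. For every list below, the share of all compared genes at 2-fold is 2.71% toward Th1 and 3.4% toward Th2, the median over all is -0.0027, and a list's count and median describe the members that passed the filter. Il5, which encodes the growth factor of eosinophils, read 57.4 in Ezh2 KO unpolarized, 27.8 in Ezh2 KO Th1 and 842 in Ezh2 KO Th2 cells, against 1.63, 18.7 and 31.2 in the wild type cells in the same order. One array stands clear here, the Ezh2 KO Th2 array, 30.3-fold above Ezh2 KO Th1. Il13, whose product drives mucus and alternative macrophage activation, read 75.2, 68.9 and 555 in the Ezh2 KO cells and 8.72, 23.1 and 6.26 in the wild type cells. Its difference was -3.01 in the Ezh2 KO pair and 1.03 in the wild type pair, where every reading was dim. Il4, the inducer of the Th2 fate, read 230 in unpolarized, 204 in Th1 and 601 in Th2 cells of the Ezh2 KO, and 24.1, 20.5 and 227 in wild type. For Il4 the gap between Th1 and Th2 was smaller in the Ezh2 KO pair (-1.56) than in wild type (-3.47), and the Ezh2 KO Th1 reading lay close to the wild type Th2 one.

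The promoter windows of Il5, Il13 and Il4, and of Ifng as the Th1 counterpart, are shown because these 4 cytokine genes define the fates compared. Each window runs from 250 bases before to 50 bases after the start that RefSeq gives on GRCm38.p6, 5′ to 3′ on the strand of the gene, and of the 2 starts given for Il4 only this one is shown. Capitals mark matches, on either strand, to the GATA core (A or T, then GATA, then A or G), to TTCNNNNGAA or to TTCNNNGAA, the spacings known for STAT6 and for STATs in general. Il5 is on chromosome 11 (chr11:53720544-53720843, plus strand), Il13 and Il4 on the same chromosome (chr11:53634653-53634952 and chr11:53618616-53618915, both minus strand) and Ifng on chromosome 10 (chr10:118440796-118441095, plus strand).
Il5: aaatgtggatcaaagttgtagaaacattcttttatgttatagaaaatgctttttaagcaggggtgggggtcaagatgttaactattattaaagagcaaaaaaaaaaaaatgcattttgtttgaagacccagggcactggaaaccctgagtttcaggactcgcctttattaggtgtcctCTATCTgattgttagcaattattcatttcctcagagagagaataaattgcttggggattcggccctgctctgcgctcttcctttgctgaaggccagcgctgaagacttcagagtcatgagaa
Il13: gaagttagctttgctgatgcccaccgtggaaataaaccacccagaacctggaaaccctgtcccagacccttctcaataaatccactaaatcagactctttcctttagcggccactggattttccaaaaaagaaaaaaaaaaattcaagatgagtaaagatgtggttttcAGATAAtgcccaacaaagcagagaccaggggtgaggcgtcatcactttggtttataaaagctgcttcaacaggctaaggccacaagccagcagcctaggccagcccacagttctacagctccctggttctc
Il4: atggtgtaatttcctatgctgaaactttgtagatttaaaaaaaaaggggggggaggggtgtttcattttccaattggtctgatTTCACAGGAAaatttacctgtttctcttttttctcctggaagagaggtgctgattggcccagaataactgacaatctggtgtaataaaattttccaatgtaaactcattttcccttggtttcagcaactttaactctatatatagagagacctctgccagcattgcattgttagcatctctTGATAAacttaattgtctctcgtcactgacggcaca
Ifng: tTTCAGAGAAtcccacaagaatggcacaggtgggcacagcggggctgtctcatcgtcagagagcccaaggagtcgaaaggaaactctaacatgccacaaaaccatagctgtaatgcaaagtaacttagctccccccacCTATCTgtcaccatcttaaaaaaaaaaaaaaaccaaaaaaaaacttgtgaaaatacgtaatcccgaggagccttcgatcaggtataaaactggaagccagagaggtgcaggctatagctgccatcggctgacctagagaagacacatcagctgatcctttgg

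A GATA match stands 72 bases before the start of Il5 (CTATCT, the core read on the other strand) and 81 bases before the start of Il13 (AGATAA). In the Il4 window the GATA match (TGATAA) lies 14 bases after the start and a TTCNNNNGAA match 167 bases before it. Ifng has a TTCNNNGAA match at 249 and a GATA match at 112 bases before the start. Such matches are frequent: the GATA core occurs in 29.8% of all 32851 RefSeq windows, TTCNNNNGAA in 6.95% and TTCNNNGAA in 8.3%. For the 60 bright Th2-high genes, 45 had windows (63 in all), of which 31.7% held the GATA core, 3.17% TTCNNNNGAA and 4.76% TTCNNNGAA. A match is a run of letters and was not examined as a binding site.

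Il10, the gene of an anti-inflammatory cytokine, read 284 in unpolarized, 361 in Th1 and 3891 in Th2 cells of the Ezh2 KO, a difference of -3.43 between Th1 and Th2. In wild type the readings were 25.0, 34.7 and 45.2, a difference of -0.38. Il24, another member of the Il10 family, read 378, 405 and 2611 in the Ezh2 KO cells and 82.2, 55.3 and 183 in the wild type cells. Both genotypes had the highest Il24 reading in Th2 cells, with differences of -2.69 and -1.73. Il6 was at least 15.3-fold higher in Ezh2 KO Th2 cells (3.86 against 173), and its wild type readings were all under the floor. Csf2, which encodes GM-CSF, was level across the pair at 1164 and 1256.

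Genes next to these cytokines in the RefSeq gene order, a comparison chosen after the values were seen, differed less. Between Il13 and Il5 lies Rad50, which read 1277 in Ezh2 KO Th1 and 1407 in Ezh2 KO Th2 cells (-0.14). Irf1, on the far side of Il5, read 4827 and 4925 (-0.03), and Kif3a, next to Il4, read 457 and 786 (-0.78). Il20, between Il24 and Il10, was dim in both cultures (50.7 and 55.5), and Mapkapk2 on the other side of Il10 read 924 and 1174 (-0.34). The wide gaps were those of Il4, Il5, Il13, Il10 and Il24, and Rad50, Irf1 and Mapkapk2 between or beside them were under 2-fold apart. Over all bright genes 1.07% were 2-fold apart, so level neighbours say nothing particular about these loci.

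Transcription factors of the Th2 fate were higher in Ezh2 KO Th2 cells in 11 of 13 compared members, 4 of them at 2-fold, with a list median of -0.51. Gata3, the factor that opens the Th2 cytokine locus, read 971 in unpolarized, 686 in Th1 and 1962 in Th2 cells of the Ezh2 KO, and 575, 475 and 830 in wild type. In both genotypes Th2 was the highest and Th1 the lowest, with differences of -1.52 and -0.81. Pparg, a nuclear receptor used by Th2 cells, read 307, 413 and 1272 in the Ezh2 KO cells and 18.5, 24.2 and 64.9 in the wild type cells. The Th2 reading was 3.08-fold above Th1 in the Ezh2 KO and 2.69-fold in wild type, and every Ezh2 KO reading was above every wild type one. Epas1, which encodes the hypoxia-inducible factor HIF-2 alpha, read 823, 858 and 4603 in the Ezh2 KO cells (-2.42), and a further Epas1 probe set gave -2.35. Irf4, required for effector T cell differentiation, read 944 in Ezh2 KO Th1 and 1968 in Ezh2 KO Th2 cells (-1.06), although its other probe set did not share the sign. Maf, an activator of Il4 and Il10, did not follow the pattern: it read 5309 in Th1 and 5302 in Th2 cells of the Ezh2 KO, and 73.1 and 92.2 in wild type. Stat6, the transducer of IL-4, read 1032 and 885 (0.22).

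**Figure D3:**
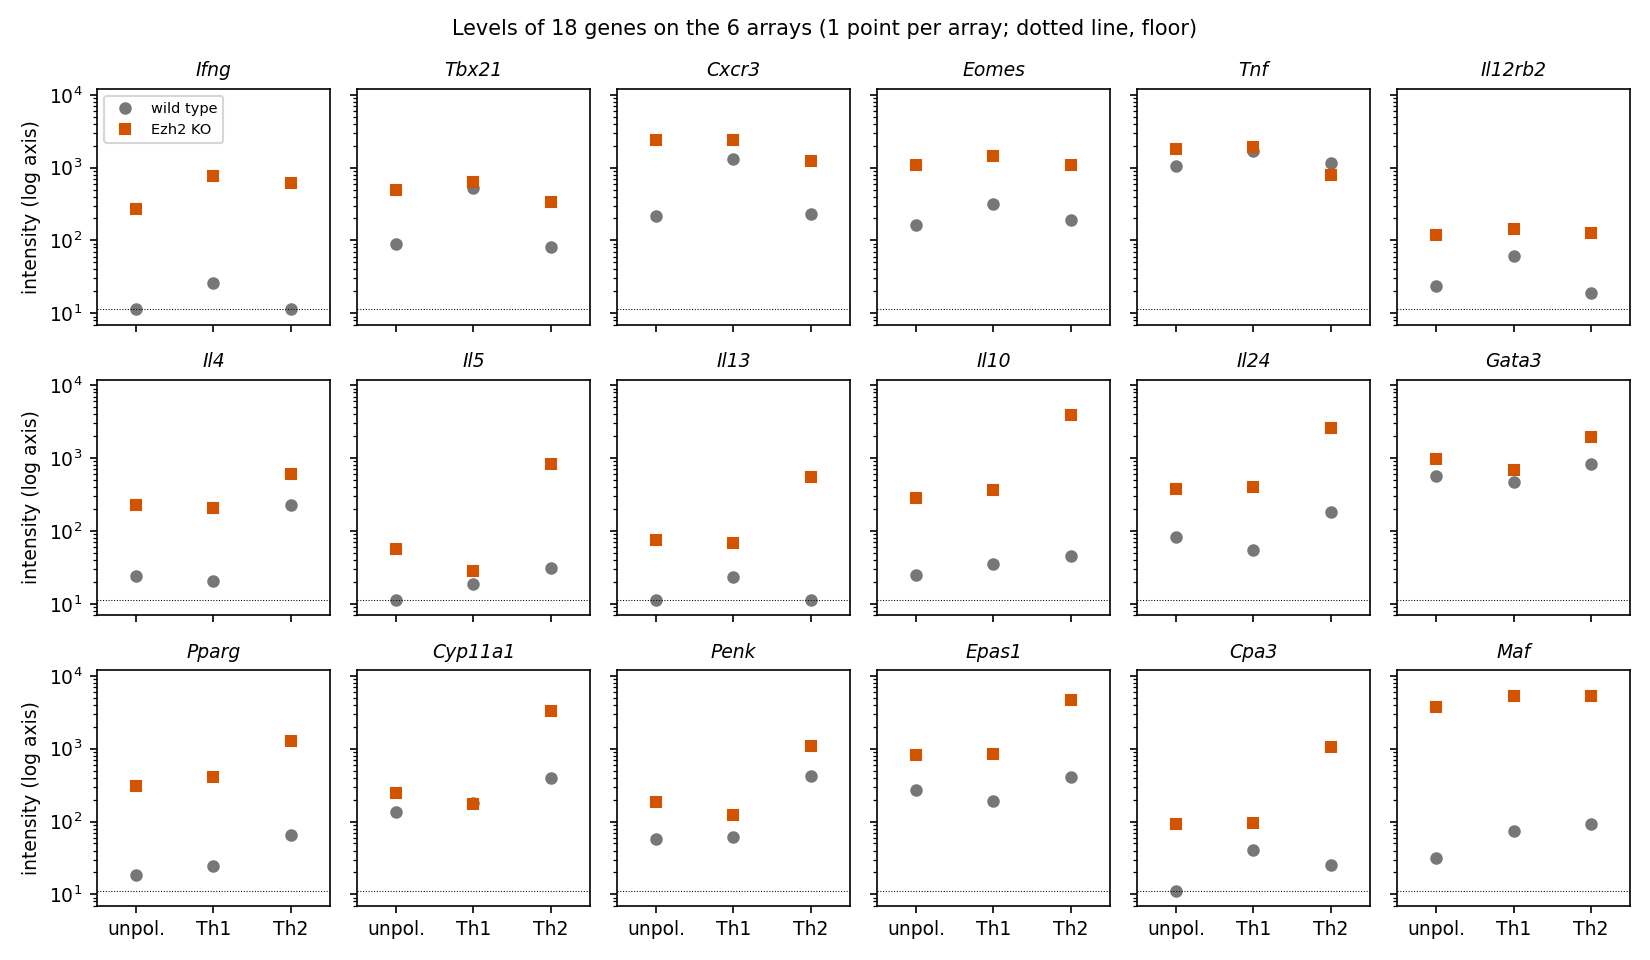
Intensity (vertical, log axis) of 18 genes on the 6 arrays, 1 point per array, in unpolarized, Th1 and Th2 cells of wild type (grey circles) and Ezh2 KO (orange squares); the dotted line is the floor of 11.3. In the Ezh2 KO cells Il5, Il13, Il10, Il24, Cyp11a1, Penk, Epas1 and Cpa3 are highest in Th2, whereas Ifng, Eomes and Maf read much the same in Th1 and Th2.

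Among receptors and effector genes of the Th2 list, 3 of 10 compared members were at least 2-fold higher in Ezh2 KO Th2 cells and 1 in Th1, with a median of -0.56. Cyp11a1, the enzyme that starts steroid synthesis from cholesterol, read 246 in unpolarized, 173 in Th1 and 3263 in Th2 cells of the Ezh2 KO. The wild type readings were 136, 178 and 400. Th2 was the highest in both genotypes, 18.9-fold above Th1 in the Ezh2 KO and 2.25-fold in wild type. Penk, which encodes the opioid precursor proenkephalin, read 187, 125 and 1096 in the Ezh2 KO cells and 57.3, 61.2 and 421 in the wild type cells, giving close differences of -3.14 and -2.78. Ecm1, a secreted matrix protein of Th2 cells, was also alike, at -1.71 and -1.66. The member on the Th1 side was Il6ra, a receptor chain for IL-6, with dim readings of 95.7 in Th1 and 19.9 in Th2 cells. Il4ra, the IL-4 receptor chain, read 2073 and 2570 (-0.31). Il1rl1, the IL-33 receptor, was not analysed here.

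Th1 genes were less separated in the Ezh2 KO pair for Tbx21, Cxcr3 and Il12rb2 (the last at dim wild type readings), and more so for Tnf and Lta. Ifng read 266 in unpolarized, 767 in Th1 and 608 in Th2 cells of the Ezh2 KO, a difference of 0.33 between Th1 and Th2. In wild type it was dim throughout, at 6.07, 25.8 and 4.03. Every Ezh2 KO reading of Ifng was thus above every wild type reading, the Th2 culture included. Tbx21 read 488, 643 and 336 in the Ezh2 KO cells and 90.0, 530 and 80.8 in the wild type cells. Its difference of 0.94 in the Ezh2 KO, against 2.71 in wild type, arose with similar Th1 readings in both genotypes and higher unpolarized and Th2 readings in the Ezh2 KO. Eomes, the T-bet relative of cytotoxic cells, read 1071, 1439 and 1088 in the Ezh2 KO cells (0.40) and 161, 313 and 192 in the wild type cells (0.71). Stat4 read 2496 and 2097 in the Ezh2 KO pair (0.25) and differed by 0.09 in wild type. Of the 8 compared Th1 transcription factors, 0 were 2-fold higher in Ezh2 KO Th1 cells and 1 was 2-fold higher in Th2, the dim Hlx (2.72 and 83.8), which passed the filter through that array only.

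Cxcr3, the chemokine receptor that T-bet switches on, read 2378 in unpolarized, 2382 in Th1 and 1215 in Th2 cells of the Ezh2 KO. It read 219, 1313 and 227 in the wild type cells, so the Ezh2 KO Th2 reading was near that of wild type Th1. The difference of 0.97 fell just under 2-fold. Il12rb2, the IL-12 receptor chain, read 144 and 126 in the Ezh2 KO pair (0.19) and 61.6 and 19.1 in the wild type pair (1.69). Both wild type readings of Il12rb2 were under 64.14, so that difference is not well measured. Of 12 compared Th1 receptors, 0 were 2-fold higher in Ezh2 KO Th1 cells and 2 were 2-fold higher in Th2: Cxcr6 (3241 and 7631) and Havcr2, which encodes the inhibitory receptor Tim-3 (217 and 472). Il18r1, the IL-18 receptor chain, went the other way, at 6924 in Th1 and 4204 in Th2 cells (0.72), and had a like difference in wild type (0.80).

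Of the 11 compared Th1 cytokines and chemokines, 1 was 2-fold higher in Ezh2 KO Th1 and 1 in Th2 cells, with a median of 0.24 beside 0.83 in wild type. Tnf, the inflammatory cytokine, read 1800 in unpolarized, 1899 in Th1 and 801 in Th2 cells of the Ezh2 KO (1.24), and 1041, 1668 and 1169 in the wild type cells (0.51). Here the Ezh2 KO Th2 array is the low one among the 6. Lta, the neighbouring lymphotoxin gene, was 1.93-fold higher in Ezh2 KO Th1 cells (8948 and 4632), a wider difference than in wild type (0.95 and 0.13). Fasl, the death ligand, read 3044 and 2029 (0.59). The chemokine genes Ccl3 and Ccl4 leaned to Th2 in the Ezh2 KO pair (-0.79 and -0.65). In the wild type pair Ccl4 read 114 and 64.4, and Ccl3 was under the low limit in both cultures (33.1 and 1.98). Xcl1 read at most 84.4 on any array.

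Genes of the interferon response were level between the Ezh2 KO cultures. Of 38 listed genes, 32 were compared, and 0 were 2-fold apart in the Ezh2 KO pair. There 14 were above and 18 below 0, with a median of -0.03 and a range from -0.39 to 0.73. Of the 32, 28 were bright in this pair, and over all bright genes 1.07% were 2-fold apart. The 0 by itself therefore says nothing particular about this list. In the wild type pair, 20 of the 32 were 2-fold higher in Th1 cells, where 3.82% of all compared genes were, and all 32 were above 0, with a median of 1.25. Genes 2-fold higher in wild type Th2 were 2.92% of those compared, and 0 of the 32 were among them. Oasl2, an antiviral gene, read 497 in unpolarized, 653 in Th1 and 495 in Th2 cells of the Ezh2 KO, and 96.0, 238 and 26.7 in wild type. Ifit3, another interferon-induced antiviral gene, read 985, 1062 and 695 in the Ezh2 KO cells and 293, 330 and 77.8 in the wild type cells. Gbp2, a guanylate-binding protein induced by interferon gamma, read 3332, 6152 and 8055 in the Ezh2 KO cells and 892, 2152 and 709 in the wild type cells. On each of these the lowest array of the 6 was wild type Th2, and no Ezh2 KO culture came down to it. Over the 32 genes the median difference between genotypes, Ezh2 KO minus wild type, was 0.67 in Th1 and 2.39 in Th2 cells. The wild type and Ezh2 KO Th2 cultures both held the antibody to interferon gamma.

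**Figure D4:**
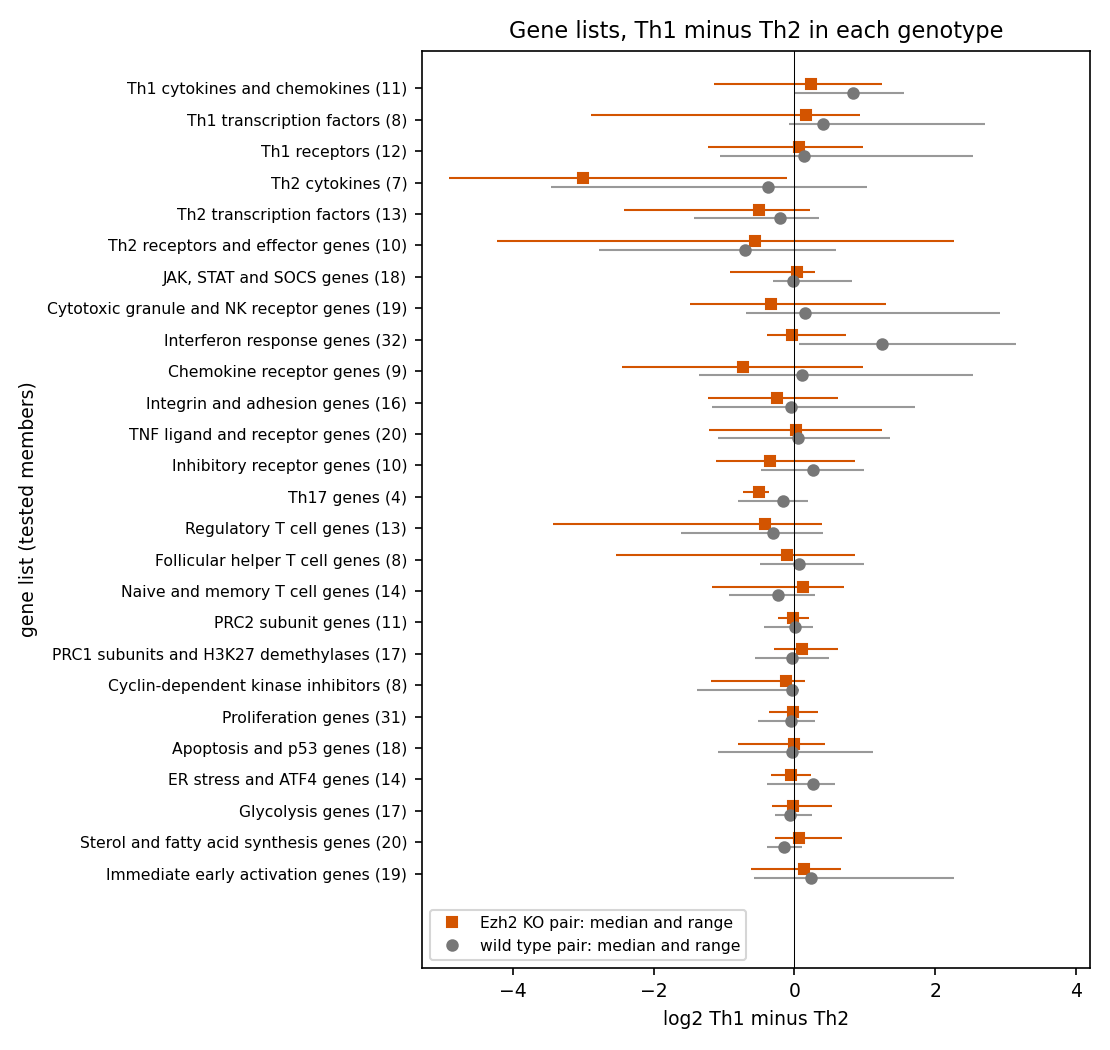
Th1 minus Th2 difference (horizontal, log2) of the compared members of 26 gene lists (vertical, number of members in brackets), as median and range, in the Ezh2 KO pair (orange squares) and the wild type pair (grey circles); 1 array per culture. The Th2 cytokine list lies farthest below 0 in the Ezh2 KO pair, where Il5 and Il6 passed the filter through the Ezh2 KO Th2 array only, and the interferon response list is at -0.03 there and at 1.25 in wild type.

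Chemokine receptors of effector T cells differed in direction in the Ezh2 KO pair. Among 9 compared receptors, 3 were 2-fold higher in Th2 (3.4% over all compared genes) and 0 in Th1 (2.71%), and Cxcr3 was the member farthest to Th1, at 0.97. Ccr1, a receptor for CCL3 and CCL5, read 141 in unpolarized, 176 in Th1 and 962 in Th2 cells of the Ezh2 KO, and between 27.1 and 32.0 in the wild type cells. Ccr2, a receptor for CCL2, read 1806, 1835 and 3889 in the Ezh2 KO cells and 108, 73.4 and 189 in the wild type cells. Th2 was the highest for Ccr2 in both genotypes (-1.08 and -1.36), at levels that did not overlap between them. Cxcr6, which lies near Ccr1 and Ccr2 on chromosome 9, read 3037, 3241 and 7631 in the Ezh2 KO cells and at most 117 in the wild type cells.

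Granzyme genes spanned a wide range of readings in the Ezh2 KO pair. Gzma, a protease of cytotoxic granules, read 13065 in unpolarized, 15533 in Th1 and 38608 in Th2 cells of the Ezh2 KO (-1.31), against 29.1, 51.7 and 51.0 in the wild type cells. Gzmg, from the granzyme cluster on chromosome 14, read 250 and 702 in the Ezh2 KO pair (-1.49), and Gzme, its neighbour, read 294 and 588, just short of 2-fold. Neighbouring granzyme genes are close copies of each other, so the reading of a single member is uncertain. Gzmb was less apart, at -0.33. Of 19 compared genes for granules and NK receptors, 1 was 2-fold higher in Ezh2 KO Th1 (the dim Gzmm) and 2 in Th2, with a median of -0.33 beside 0.16 in wild type. Klrc1, an inhibitory receptor gene, read 403 in Th1 and 224 in Th2 cells (0.85).

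Other lists had few or no genes 2-fold apart. Icos, a costimulatory receptor gene, read 5110 in Ezh2 KO Th1 and 12330.0 in Ezh2 KO Th2 cells (-1.27), and Tox2, a factor of follicular helper cells, read 78.0 and 453 (-2.54). Il7r, the survival receptor of naive and memory cells, was higher in Th2 in both genotypes, at 2785 and 6255 in the Ezh2 KO pair (-1.17) and 1611 and 3070 in the wild type pair (-0.93). Ctla4 read 2663 and 4744 (-0.83), and Btla, another inhibitory receptor, went the other way at 2213 and 1219 (0.86). Socs3, the feedback inhibitor of STAT3 signalling, read 2890 and 5478 (-0.92), the widest gap of the 18 compared JAK, STAT and SOCS genes, 0 of which were 2-fold apart. In the activation list Egr1 read 5040 and 3277 in the Ezh2 KO pair (0.62) and 3215 and 666 in the wild type pair (2.27). The lists of PRC2 subunits (11 compared), PRC1 subunits and H3K27 demethylases (17), proliferation (31), glycolysis (17), ER stress (14) and sterol and fatty acid synthesis (20) had 0 members 2-fold apart in the Ezh2 KO pair, with medians between -0.05 and 0.11. Over all bright genes 1.07% were 2-fold apart, so counts of 0 say nothing particular about these lists. Of 14 compared naive and memory T cell genes, 10 were higher in Ezh2 KO Th1 and 4 in Ezh2 KO Th2 cells, with a median of 0.12. Among them Foxp1, Klf2 and Bach2, factors of the naive state, were 1.45-fold to 1.51-fold higher in Ezh2 KO Th1 cells. In the wild type pair these 3 leaned slightly to Th2 (-0.24, -0.22 and -0.15).

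Against Ezh2 KO unpolarized cells, which both Ezh2 KO cultures share as their reference, the 60 bright Th2-high genes had a median difference of 1.34 in Th2 and -0.03 in Th1 cells. In this set 49 of the 60 were at least 2-fold above unpolarized in Th2, and 58 lay farther from unpolarized in Th2 than in Th1. The same shares over all genes were not counted. Genes picked for a high Th2 reading tend to exceed unpolarized on that array, so these counts only describe the set. The 8 bright Th1-high genes had medians of 0.33 in Th1 and -0.81 in Th2 cells. For most of these genes, which were picked by the Ezh2 KO Th1 and Th2 readings themselves, it was the Th2 array that stood apart. Tox, a regulator of chromatin in activated T cells, was the widest of the Th1 side, at 309 in unpolarized, 558 in Th1 and 195 in Th2 cells (1.52). Upp1, a uridine-cleaving enzyme, read 1302, 1253 and 498 in the Ezh2 KO cells and 24.5, 37.3 and 22.5 in the wild type cells. Klf3, a repressor of the Krüppel-like family, read 2248 and 1066, and its 5 further probe sets above the low limit were all higher in Th1, by 0.06 to 0.70.

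Further bright genes of the Th2 side, named after their values were seen, had various roles. Cysltr1, a leukotriene receptor, read 3105 in unpolarized, 2726 in Th1 and 7158 in Th2 cells of the Ezh2 KO. Rgs1, a brake on chemokine receptor signalling, read 1599, 2052 and 5765, and the transcription factor gene Myb read 1610, 1614 and 4011. In wild type, Rgs1 and Myb leaned slightly to Th1 (0.26 and 0.43). Dgat1, an enzyme of triglyceride synthesis, read 964 and 2294 in the Ezh2 KO pair. Il1r2, the decoy receptor of IL-1, read 85.2 and 572 (-2.75). Esm1, which encodes a secreted proteoglycan, read 222 and 575 in the Ezh2 KO pair (-1.37) and 28.6 and 3.89 in the wild type pair (1.34).

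Markers of other cell types were mostly dim. Cpa3, a mast cell protease gene that was 10.9-fold higher in Ezh2 KO Th2 cells (96.9 and 1061), belongs to the mast cell and basophil list, whose summed level over 10 measured genes was 412 in unpolarized, 374 in Th1 and 1317 in Th2 cells of the Ezh2 KO and between 268 and 288 in wild type. Of its members, 7 of 10 were under 64.14 on all arrays. Cpa3 alone made up 1061 of the 1317 in Ezh2 KO Th2 cells. Of the 3 compared members, 2 were higher in Ezh2 KO Th1 and 1 in Ezh2 KO Th2 cells, with a median of 0.11. Fcer1a and Ms4a2, chains of the IgE receptor that define these cells, read 18.4 and 12.0 in Ezh2 KO Th1 and 2.28 and 4.28 in Ezh2 KO Th2 cells. Kit read 146 and 135, and the basophil protease gene Mcpt8 read 2.01 and 64.1. The B cell marker Ms4a1 read 189 in Ezh2 KO Th1 and 669 in Ezh2 KO Th2 cells (-1.83), and Cd79b read 102 and 244 (-1.26). In wild type Ms4a1 and Cd79b leaned the same way (-1.07 and -1.41), and all 5 compared B cell markers were lower in Th1 than in Th2 in the Ezh2 KO pair, with a median of -0.93. The summed level of 7 measured B cell genes was 4576 and 5543 in the Ezh2 KO pair and 7437 and 8765 in the wild type pair, most of it from Ighm. Without Ighm the sums were 482 and 1195 in the Ezh2 KO pair and 216 and 396 in the wild type pair, and Cd79a and Pax5 were under the low limit throughout. MHC class II genes had 6 of 6 members higher in Ezh2 KO Th2 cells, 0 at 2-fold. Their sums were 4493 and 6570 in the Ezh2 KO pair and 3448 and 3333 in the wild type pair. The myeloid list summed to 3020 and 4637 in the Ezh2 KO pair and to 2533 and 3086 in the wild type pair. Of its 7 compared members, 4 were higher in Ezh2 KO Th2 and 3 in Ezh2 KO Th1 cells, with a median of -0.18. What part other cells have in the differences was not tested, and in bulk RNA more cells of a kind and more RNA per cell cannot be told apart.

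The wild type and Ezh2 KO pairs had some bright 2-fold genes in common. Of the 51 bright genes that were 2-fold higher in wild type Th1, 0 were 2-fold apart either way in the Ezh2 KO pair. Over all bright genes that share was 1.07%, so the 0 says nothing particular about the 51. Their median was 0.08 in the Ezh2 KO and 1.41 in wild type. Of the 25 bright genes that were 2-fold higher in wild type Th2, 10 were also 2-fold higher in Ezh2 KO Th2 and 0 in Ezh2 KO Th1. Over all compared genes these shares were 3.4% and 2.71%, and over the genes bright in the Ezh2 KO pair 0.941% and 0.125%. The medians of the 25 were -1.48 in wild type and -0.62 in the Ezh2 KO. Both sets were chosen by their wild type difference, so a wider wild type median is what the choice selects. Of the 60 bright genes of the Ezh2 KO Th2 side, 16 were 2-fold higher in wild type Th2, where 2.92% of all compared genes were. A further 42 were under 2-fold in wild type. The last 2, Il13 and Esm1, were 2-fold the other way at dim wild type readings (3.82% over all compared genes). For 12 of the 60 both wild type readings were under 64.14, so their wild type difference, or the lack of one, is not well measured. Across 6011 genes bright in both pairs, the differences had a Pearson r of 0.31 and a Spearman rho of 0.32 between genotypes, a description across genes, which are not independent replicates. An interaction of genotype and culture cannot be tested with 1 array a group.

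The bright genes with the lowest Ezh2 KO difference minus wild type difference were Il5 (-4.18), Cpa3 (-4.11), Il13 (-4.04), Il1r2 (-3.38), Cyp11a1 (-3.07), Plac8 (-3.06), Il10 (-3.05) and Dusp14 (-2.93). For Il5, Cpa3, Il13, Il1r2 and Il10 both wild type readings were under 64.14, so the wild type part of these values, and their order, is not well measured. Plac8, an interferon-inducible gene of leukocytes, read 22998 in Th1 and 28341 in Th2 cells of the Ezh2 KO and 7453 and 1100.3 in wild type, so its value came from the wild type pair. At the other end stood Acsl6 (2.33), Tmem163 (2.07), Il4 (1.91), She (1.76), Id1 (1.73), Stxbp6 (1.58), Gle1 (1.48) and Nrp1 (1.48), of which Tmem163 was likewise under 64.14 in both wild type cultures. Id1, an inhibitor of helix-loop-helix factors, read 653 and 751 in the Ezh2 KO pair and 131 and 501 in the wild type pair. Nrp1, the receptor neuropilin, read 544 and 596 in the Ezh2 KO pair and 437 and 1336 in the wild type pair. In all, 122 of the 6788 genes bright in either pair had a value of -1 or less and 31 had 1 or more.

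**Figure D5:**
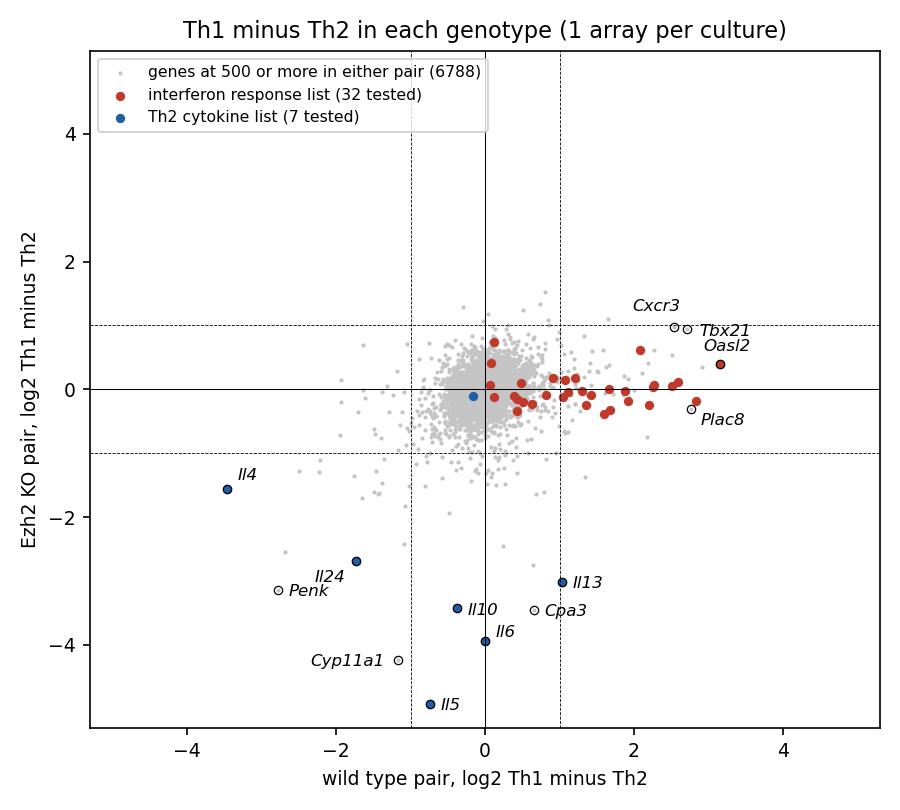
Th1 minus Th2 difference (log2) in the wild type pair (horizontal) and in the Ezh2 KO pair (vertical), 1 point per gene. Grey points are the 6788 genes that read 500 or more in either pair. All compared members of the interferon response list (red) and the Th2 cytokine list (blue) are shown, dim ones included. Dashed lines mark 2-fold. The interferon genes spread along the horizontal axis near 0 in the Ezh2 KO pair, and Il5, Il10, Il13 and Cpa3 lie low with wild type values between -0.74 and 1.03.

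Differences shared by both genotypes are the ones the arrays can test, with limma fitted to all 6 arrays with culture and genotype as terms. The 2 genotypes then serve as the replicates of a culture. With 1 array per genotype and culture, the p-values rest on how far culture differences depart between the genotypes. They do not measure a spread between replicate arrays. Of 11585 genes, 0 (0.0%) passed a Benjamini-Hochberg adjusted p of 0.05. The smallest adjusted p was 0.2568, and 875 genes had an unadjusted p under 0.05. When the variance prior was allowed to follow intensity, 16 genes (0.138%) passed, 3 higher in Th1 and 13 in Th2. The Th2-high genes were Tent5a, Penk, Tiam1, Cd24a, Ecm1, Il7r, Prxl2a, Prdx4, Armcx4, Mgll, Myo6, Gm2a and S100a6. Tent5a, a poly(A) polymerase gene, had a fitted difference of -1.54 ± 0.11 (SE; adjusted p 0.007195, limma with an intensity trend), and read 847 and 2643 in the Ezh2 KO pair and 1164 and 3159 in the wild type pair. Penk had -2.96 ± 0.24 (adjusted p 0.008443, limma with an intensity trend). Cd24a, a surface glycoprotein gene, had -2.62 ± 0.24, from 62.1 and 364 in the Ezh2 KO pair and 305 and 1976 in the wild type pair. The Th1-high genes were Zcchc2 (0.97 ± 0.11), Il18r1 (0.76 ± 0.09) and Tgm2, which encodes a transglutaminase (0.94 ± 0.12). Of the 60 bright Th2-high genes of the Ezh2 KO pair, those in this group were Penk, Ecm1, Tent5a, Prxl2a, Mgll, Tiam1, Il7r and Myo6, and the cytokine genes were not among them. A gene whose difference varies between genotypes gets a wide SE in this fit, as Il5 and Il13 did (0.92 each). Their absence therefore says little about them.

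Where a called bright gene had another probe set above the low limit, the sets mostly pointed the same way. Of 60 such sets from 35 of the 68 genes, 52 had the same sign, 26 of them at 2-fold, and 8 did not, namely the further sets of Epcam, Irf4, Marcks, Mtg2, Slc35d1 and Zbtb38. Ranked without a brightness limit, the pair gave other genes: the 15 highest differences read between 77.6 and 142 on the Th1 array, and for 14 of them the Th2 reading was at the floor. Chst15, a sulfotransferase gene, led this ranking at 142 and 9.98 (at least 12.6-fold), followed by Muc20, Hrct1, Inhbb, Creb3l3, Odf3b, Bmp10, Aatk, Tmem213, Cfap126, Myof, Bcar3, Numbl, Hsf4 and Slc5a5. Inhbb, an activin subunit gene, was the one with readings above the floor on both arrays (125 and 13.7) and had 146 and 12.6 in the wild type pair. Of the 15 lowest, 6 were bright, namely Il5, Cyp11a1, Cpa3, Il10, Penk and Il13, and the rest were Il6, Tmem89, Adh7, Ccdc14, Fhit, Mef2c, Cdk5r1, Papss2 and Lyl1. Among 1107 bright probe sets without a single gene symbol, 2 were 2-fold higher in Ezh2 KO Th1 and 8 in Th2.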

How the data were processed

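Total RNA of 6 cultures was labelled by a 3' in vitro transcription method for Affymetrix arrays, per the labels' protocols. The deposited intensities are linear and, per the submitters' processing notes, were made with Affymetrix Expression Console (version not named). How probes were summarized is not stated in these sources. The intensities carried a 2% trimmed mean of 500.003 on each array.

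Of 45101 probe sets, 64 were controls, 34958 had 1 symbol in the platform annotation, 932 several and 9147 none. Entrez identifiers of 34754 matched RefSeq (GRCm38.p6). Values were raised to the 20th percentile (11.3) and taken to log2, and each gene was read from its probe set of highest mean. Genes whose highest value reached the median (64.14) were compared. The fit across genotypes used limma 3.58.1 in R 4.3.3 with eBayes and Benjamini-Hochberg adjustment, and was tested on simulated data. The number of arrays limits precision. The alternatives were other scalings, floors, filters, probe set rules and an intensity trend.

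The members and the 35 gene lists were chosen with earlier results of these data known. The rule named Ezh2, 15 core genes (14 measured), the 15 highest and lowest differences, the 8 highest and lowest differences of pairs among protein genes with RefSeq names, and up to 5 genes per list. The intensity limit of 500 and other genes were chosen after values were seen.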

Additional observations from a re-analysis of the deposited data

Results flagged for a closer look

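Among the genes named by rule, 16 were at least 2-fold apart in one direction in the Ezh2 KO pair and at least 2-fold apart in the opposite direction in the wild type pair. With 1 array a group, the difference between the genotypes was not tested. Il13 was the one with a reading above 500, at log2 -3.01 (Th1 minus Th2) in the Ezh2 KO and 1.03 in wild type, where its readings were 23.1 and 6.26.

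The others read at most 122 on any Th1 or Th2 array. Higher in Ezh2 KO Th1 and in wild type Th2 cells were Hrct1 (log2 3.22 in the Ezh2 KO pair and -1.56 in wild type), Cilp2 (2.67 and -1.71), Saxo2 (2.41 and -1.81), Alox12e (2.41 and -1.88), Bcam (2.30 and -2.34), Gapdhs (2.19 and -2.33), Wbp2nl (2.09 and -2.53) and Cyp26b1 (1.89 and -2.51). Higher in Ezh2 KO Th2 and in wild type Th1 cells were Mef2c (-2.98 and 1.16), Vgll2 (-2.51 and 2.90), Crybb3 (-2.38 and 1.84), Sct (-2.03 and 2.61), Hoxa7 (-1.93 and 2.51), Xcl1 (-1.14 and 1.42) and Tesmin (-1.01 and 3.20). All of the 16 but Il13 and Xcl1 were named by a rule that ranked the difference between pairs, so a large value there is what the rule selects. Over all compared genes, 84 were 2-fold apart in opposite directions, and 0 of them were at 500 or more in both pairs.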

How the results depend on the processing

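With 1 array a group, no array could be left out of the pair. No pairing by replicate number was possible because the labels give none, and genotype was a term of the fit across genotypes. Median centring and quantile normalization left every count within 1.5 times its main value, and 66 and 65 of the 68 bright genes were called again. With a floor at the 40th percentile, all compared genes gave 159 higher in Th1 and 251 higher in Th2 in the Ezh2 KO pair and 239 and 170 in wild type. Without a filter on low values these were 1146 and 1130 and, in wild type, 1232 and 1202. Keeping genes whose mean reached the 60th percentile left 6 and 35, and 60 and 28, the 35 also being its count of bright Th2-high genes. With the probe set of the largest range, 575 genes were higher in Ezh2 KO Th1, 14 of them bright. Averaging probe sets left 4 bright genes higher in Th1 and 38 in Th2 (40 of the 68 called again), while over all compared genes the counts were 235 and 307. Requiring the brighter Ezh2 KO array to reach the median, chosen after seeing the data, left 204 higher in Th1. The 84 genes apart in opposite directions became 10, 323, 0, 134 and 50 with the higher floor, no filter, the mean filter, the largest range and that last rule. Calls shared by both genotypes were 3 and 13 with the intensity trend, and 0 by limma in each other setting, where 700 to 1354 genes had an unadjusted p under 0.05.

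Of 4703 values for 243 genes and the medians of 34 lists across pairs and settings, 4313 moved by less than the spread between probe sets of a gene (SD 0.2073). Sign changes were counted only for values at 2-fold or more in the main setting, and there were 11. Smaller values that changed sign are not in that count. The sign changes so counted in the Ezh2 KO pair were Myof with no floor (-0.70), Tesmin with averaged probe sets (0.17), and Bcar3 (-1.57), Cystm1 (0.48), Zbtb38 (0.43), Mtg2 (0.57) and Klf3 (-1.49, from a probe set under the low limit on both arrays) with the largest range. In the wild type pair they were Gadd45b (-0.34 averaged, -2.46 with the largest range) and Prxl2a (0.15 and 1.75). The cause was not tested. Dim genes are limited by signal over background.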
